A study of Homo sapiens with 8 samples.

Results

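FLI1 peaks at the promoters of long non-coding RNA (lncRNA) genes that start away from any protein-coding gene were examined by ChIP-Seq in a pair of established lines of germinal center B-cell (GCB) diffuse large B-cell lymphoma (DLBCL), named OCI-Ly1 and VAL. ChIP-Seq sequences the DNA that an antibody, here to FLI1, brings down with chromatin. The members were chosen by peak strength and position. A peak was a member when its −log10 q, from the caller's adjusted p-value, was at least 3 and its centre lay within 3 kb of a transcription start site (TSS) of a lncRNA gene and more than 3 kb from every TSS of a protein-coding gene. The lists of replicate 2 gave 334 members among the 5354 passing peaks of OCI-Ly1 and 387 among the 6474 of VAL, together 721 of 11828. "Passing" stands for a −log10 q of at least 3 throughout, and OCI-Ly1 and VAL without a number stand for these replicate 2 libraries. The labels gave 2 replicates of FLI1 and 2 of input DNA per line, so 4 FLI1 libraries and 4 input samples, and no treatment in any group. The FLI1 antibody was a rabbit polyclonal, and each ChIP-Seq pooled several parallel precipitations. Nothing in the labels says whether the replicates came from separate cultures.

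FLI1 is a transcription factor of the ETS family, whose members bind DNA around a GGAA core, and FLI1 prefers CCGGAAA or CCGGAAG. It is made in blood and endothelial cells, and its fusion with EWSR1 in Ewing sarcoma binds repeats of GGAA. A lncRNA is a long transcript with no annotated protein. Some lncRNAs act in the nucleus, some regulate nearby genes, and others are known only as the hosts from which microRNAs or small nucleolar RNAs (snoRNAs) are cut. Many lncRNA genes start back to back with a coding gene, so that a peak there cannot be given to either gene, and the distance from coding TSSs leaves such shared promoters out.

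The summits of the strongest members, and of the members at well-known lncRNAs, show the sequence FLI1 prefers in some cases and lack it in others. The windows below are 30 bases of GRCh37, and those with CCGGAAA or CCGGAAG in capitals are read on the strand that carries it, here for members with a summit within 50 bp of it in one or both lists.
ENSG00000290823, chr15:102501811-102501840, minus strand: gagccgccctcCCGGAAGctcccgccgccg
ENSG00000289929, chr3:195361908-195361937, plus strand: ttcctgcgcccCCGGAAGcggcggtaacgc
ENSG00000285886, chr7:72425337-72425366, plus strand: cccttccgggaCCGGAAGtgccggtcgaag
LINC02579, chr2:64836599-64836628, minus strand: gccgccggaggCCGGAAGctggggcgcccc
ENSG00000291220, chr5:69711129-69711158, minus strand: ttaggggcgccCCGGAAGtcattccgccgc
MIR762HG, chr16:30886690-30886719, plus strand: ccgcgccccaaCCGGAAGtccgccaccggc
MIR142HG, chr17:56410084-56410113, minus strand: ggcagctggggCCGGAAGccacctgcccag
LINC00299, chr2:8628213-8628242, minus strand: ctgcgggtccaCCGGAAGttctgatttctc
LINC-PINT, chr7:130790874-130790903, plus strand: agcgcccgctcCCGGAAAcggtctcccggg
The next windows are centred on summits without that longer sequence within 50 bp, on the plus strand, and their capitals mark GGAA or its reverse complement TTCC where the window holds one.
ENSG00000261135, chr1:16840661-16840690: agtcgagtTTCCcacatttggGGAAatcgc
SNHG11, chr20:37075264-37075293: ggcaggggcccggcGGAAgcgccgctctag
MIR3142HG, chr5:159894840-159894869: agtacagacaGGAAgcctggggacccagcg
MALAT1, chr11:65266494-65266523: cgcctcgcccgagctgtgcggtaggcattg

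The libraries were not alike. OCI-Ly1 replicate 1 was deposited as 37 intervals, of which 33 were longer than 1 Mb, and was not used as a list of sites, so OCI-Ly1 replicate 2 stood without a replicate. Of the listed peaks, many of them far below the threshold, 0.483% passed for OCI-Ly1, while VAL had 0.656% and its replicate 1 0.41%. VAL replicate 1 had 973 passing peaks, and 54 of them met the same distances from lncRNA and coding TSSs. That library had no part in choosing the members, so it serves below as the separate library in which they were looked for. Reads at a summit, inferred from the fold enrichment and p-value, had a median of 8 among the members of either list, and the lowest number was 6. The inferred local background of the members had a median of 0.481 reads (OCI-Ly1) and 0.385 reads (VAL), and that of the 54 peaks of VAL replicate 1 was 2.75.

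Few stand-alone lncRNA genes had a member peak. GENCODE annotated 18702 lncRNA genes, of which 13856 had a TSS more than 3 kb from every coding TSS. A member lay within 3 kb of a TSS of 363 of these genes in OCI-Ly1 (2.62%, Wilson 95% interval 2.37 to 2.90) and of 421 in VAL (3.04%, 2.77 to 3.34). The genes with a member in both lists numbered 172, and 612 had one in either. Of the peaks listed in such windows at any strength, 0.721% passed in OCI-Ly1 and 0.932% in VAL, beside the shares over all listed peaks given above. Most members were modest peaks. The −log10 q, which chose them and so is a description only, had a median of 4.53 in OCI-Ly1 and 4.65 in VAL, and 187 of 334 and 211 of 387 lay between 3 and 5. The median fold enrichment over the local background was 5.90 and 5.89 in the same order.

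Most members stood for 1 gene with 1 peak. Counted by the nearest lncRNA TSS, 311 genes took the members of OCI-Ly1 and 369 those of VAL, and 18 and 16 of them had more than 1 peak. SNHG27, named as a snoRNA host and lying over 1 Mb from the nearest coding TSS, had the most in OCI-Ly1 and is named for it after its values were seen, with 5 peaks at −log10 q of 5.10, 4.39, 4.12, 3.96 and 3.6. VAL had 1 peak at SNHG27, at 3.04. Genes known only by an Ensembl identifier were nearest to 193 of 334 members (57.8%) and 226 of 387 (58.4%), where such genes made up 70.3% of the eligible set. Named hosts of snoRNAs or microRNAs (SNHG and MIR...HG symbols) were nearest to 18 members (5.39%) and 17 (4.39%), and made up 0.657% of the eligible genes. Both comparisons set a share of peaks beside a share of genes, which are unlike units. Of the 18 in OCI-Ly1, 8 were SNHG peaks at 4 genes, 5 of them at SNHG27, and 10 were MIR...HG peaks at 9 genes. In VAL 5 SNHG peaks lay at 5 genes and 12 MIR...HG peaks at 11.

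The members of both lists merged into 580 loci, of which 134 (23.1%) had a member in both lines, 195 in OCI-Ly1 alone and 251 in VAL alone. Since the threshold decides this split, it is a description. A passing peak of the other line overlapped 140 of 334 members in OCI-Ly1 (41.9%) and 138 of 387 in VAL (35.7%). Over all passing peaks this share was 48.1% and 39.5%, and over peaks within 3 kb of a coding TSS 59.6% and 52.6%. Among the 195 loci of OCI-Ly1 alone, 1 overlapped a passing VAL peak that did not meet the distances, and the highest VAL −log10 q listed at the other 194 was 2 to 3 at 46, 1 to 2 at 33, under 1 at 83 and absent at 32. Among the 251 of VAL alone, 2 overlapped such a passing OCI-Ly1 peak, and at the other 249 the OCI-Ly1 values were 2 to 3 at 39, 1 to 2 at 46, under 1 at 108 and absent at 56. Shared loci were the stronger ones, with a median −log10 q of 6.83 in OCI-Ly1 and 7.48 in VAL, against 3.95 and 3.87 at the loci of a single line. At the shared loci neither line was stronger as a rule, with OCI-Ly1 higher at 70 and VAL higher at 64, and the 2 values were more than 2 times apart at 46.

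**Figure D1:**
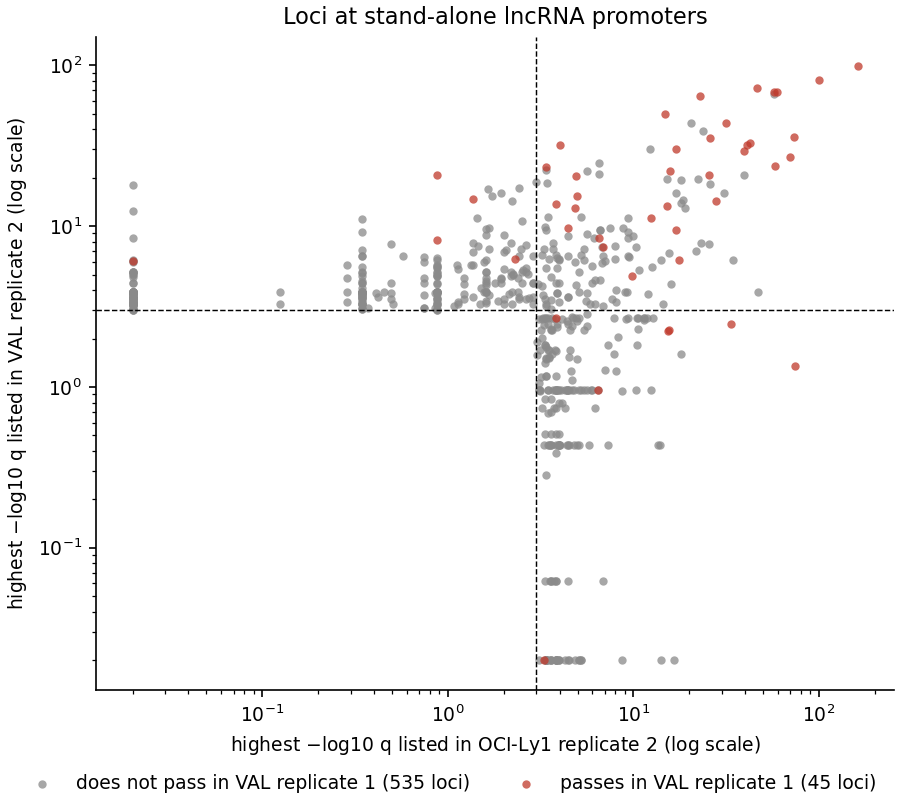
Each point is 1 of the 580 loci, placed by the highest −log10 q listed there in OCI-Ly1 replicate 2 (x axis, log scale) and in VAL replicate 2 (y axis, log scale), with loci that have no listed peak in a list, or one at 0, drawn at the left or lower edge and dashed lines at the threshold of 3. Red points are the 45 loci that also pass in VAL replicate 1, and 32 of them are among the 134 loci with a member in both lines. A further 3 loci lie above both dashed lines through a passing peak of the other line that is no member.

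VAL replicate 1 held 45 of the 580 loci above the threshold. It held 32 of the 134 shared loci (23.9%, 17.5 to 31.8), 7 of the 195 of OCI-Ly1 alone (3.59%, 1.75 to 7.22) and 6 of the 251 of VAL alone (2.39%, 1.10 to 5.12). The shared loci with a −log10 q of 10 or more in both lines numbered 35, and 21 of these were in VAL replicate 1. The 6 loci of VAL alone that passed there included MIR3142HG, the host of miR-146a, and ROCK1P1, a pseudogene transcript, and the 7 of OCI-Ly1 alone included FAM230E, FAM230F and PMS2P3. ROCK1P1, FAM230E and PMS2P3 are named here after their values were seen, while FAM230F is also among the 10 strongest members of OCI-Ly1.

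The strongest member in both lists lay at ENSG00000290823, a lncRNA that overlaps a pseudogene near the end of chromosome 15, at chr15:102501401-102502106 in OCI-Ly1. Its −log10 q was 161 in OCI-Ly1, 98.4 in VAL and 64.0 in VAL replicate 1. The fold enrichment was 49.4 with 109 reads at the summit in OCI-Ly1, and 38.2 with 68 reads in VAL. All 3 libraries were high there. The OCI-Ly1 summit lay 5 bp upstream of the TSS and within 50 bp of the CCGGAAG printed above, while the VAL summit lay 34 bp upstream and had no such sequence within 50 bp.

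ENSG00000261135 came second in both lists, with −log10 q of 100.5 in OCI-Ly1, 81.5 in VAL and 51.7 in VAL replicate 1. The nearest TSS to this peak, at chr1:16839910-16840968, was not that of the lncRNA but that of RNU1-1, which encodes U1, the spliceosomal RNA that pairs with the 5′ splice site. The peaks at ENSG00000259002 and ENSG00000259135 on chromosome 14 were likewise nearer to U1 copies, RNU1-27P and RNU1-28P. ENSG00000259002 had −log10 q of 59.4 in OCI-Ly1, 68.7 in VAL and 18.7 in VAL replicate 1. ENSG00000259135 had 46.5, 72.5 and 17.2 in the same order. These 3 members, all with an annotated small nuclear RNA as the nearest TSS, passed in every one of the 3 libraries, and none had CCGGAAA or CCGGAAG within 50 bp of its summit in either list.

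Members nearer to the TSS of another gene type than to a lncRNA numbered 29 of 334 in OCI-Ly1 (8.68%, 6.11 to 12.2) and 36 of 387 in VAL (9.30%, 6.80 to 12.6). Pseudogenes were the nearest in 22 and 23 of these, microRNA genes in 1 and 7, and small nuclear RNA genes in 3 and 3. For these members the lncRNA and the other gene cannot be told apart as the bound promoter. A TSS of another type lay anywhere within 3 kb of 93 members (27.8%) and 89 members (23%).

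LINC02579 was high in all 3 libraries, with −log10 q of 57.2 in OCI-Ly1, 67.9 in VAL and 23.1 in VAL replicate 1. Its peak lay far from the start, with the summit 2137 bp downstream of the annotated TSS in OCI-Ly1 and 2138 bp in VAL, at the CCGGAAG printed above. ENSG00000291220, another lncRNA tagged as overlapping a pseudogene, had 31.7, 43.7 and 21.7 in the same order of libraries. ENSG00000289929 reached 69.5 in OCI-Ly1 against 27.0 in VAL and 10.4 in VAL replicate 1, and ENSG00000285886 57.8 against 23.8 and 9.41. The order between the lines was the other way round at ENSG00000287168, with 22.9 in OCI-Ly1 and 64.3 in VAL, and at LINC00667, with 14.8 and 49.8. VAL replicate 1 listed these at 12.1 and 10.7. With 1 usable library for OCI-Ly1, none of these differences between lines could be tested against replicates. GP6-AS1 was also far apart, at 46.9 in OCI-Ly1, 3.87 in VAL and 0.282 in VAL replicate 1. MRPS31P5, a pseudogene transcript, was among the 10 highest in VAL replicate 1, with 13.2 there, 16.9 in OCI-Ly1 and 30.2 in VAL.

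Several of the highest −log10 q values came from places with high local background, where many reads give a small p-value at a low fold. The inferred background exceeded 5 reads at 10 of 334 members in OCI-Ly1 (2.99%) and at 8 of 387 in VAL (2.07%), against 8 of 3272 (0.245%) and 2 of 3687 (0.0542%) of the peaks at coding promoters. Over all passing peaks the share was 2.90% and 1.39%, close to that of the members. FAM230F had 234 reads over a background of 49.0 in OCI-Ly1, a fold of 4.70 and a −log10 q of 74.4. The VAL peaks listed at that place reached 1.35, VAL replicate 1 had 4.41 there, and a separate VAL member of the same gene had 8.41. LINC00273 had 192 reads over 33.3 in OCI-Ly1 and 142 over 35.6 in VAL, at folds of 5.63 and 3.91. MIR663AHG had 137 reads over 21.2 and 131 over 15.8 at its stronger peak, and LINC00960 108 over 17.0 in VAL. Of these high-background members, 1 in each list had CCGGAAA or CCGGAAG near the summit, in both the weaker MIR663AHG peak. Their part in the results was not tested beyond leaving them out, which kept each call given below.

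The share of members found again in VAL replicate 1 was lower than that of coding promoter peaks in both lists, and neither difference passed the test. Coding promoter peaks are passing peaks centred within 3 kb of a coding TSS, the set most like the members, with 3272 in OCI-Ly1 and 3687 in VAL. A passing peak of VAL replicate 1 overlapped 39 of 334 OCI-Ly1 members (11.7%, 8.66 to 15.6) and 436 of the coding promoter peaks (13.3%, 12.2 to 14.5), with an adjusted p of 0.445 by the two-sided Fisher exact test. In VAL these were 38 of 387 (9.82%, 7.24 to 13.2) and 455 (12.3%, 11.3 to 13.4), with an adjusted p of 0.187. Over all passing peaks the share was 11.7% in OCI-Ly1 and 10.4% in VAL, close to the members' own shares. The adjustment was made over 8 tests, which include the 2 on TSS distance given below without a p, and since peaks of 1 library are not replicates of a condition, the p-values cover the counting of peaks only. The call changed with the overlap asked for, the fold minimum and the start sites used, and the direction with the strength of the peaks. Without the members within 3 kb of a TSS of another gene type, and with the coding promoter peaks as they were, the difference was −4.61 percentage points in OCI-Ly1 (adjusted p = 0.0465, Fisher exact test) and −4.62 in VAL (adjusted p = 0.0182, Fisher exact test).

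Recovery was highest among the strongest peaks. Among members with a −log10 q of 10 or more, 27 of 71 from OCI-Ly1 (38.0%, 27.6 to 49.7) and 29 of 62 from VAL (46.8%, 34.9 to 59.0) were in VAL replicate 1. Between 3 and 5 the numbers were 9 of 187 (4.81%, 2.55 to 8.89) and 1 of 211 (0.474%, 0.0837 to 2.64), and between 5 and 10 they were 3 of 76 (3.95%, 1.35 to 10.97) and 8 of 114 (7.02%, 3.599 to 13.2), so in OCI-Ly1 the middle band was no higher than the lowest. In coding promoter peaks the same bands gave 35.1% and 41.7% at 10 or more, 8.32% and 7.52% at 5 to 10, and 3.13% and 1.48% at 3 to 5. Read from the other side, 45 of the 54 VAL replicate 1 peaks that met the distances (83.3%, 71.3 to 91.0) passed in OCI-Ly1 or VAL, with 33 of them in both. For coding promoter peaks of VAL replicate 1 this was 473 of 498 (94.98%, 92.7 to 96.6), and for all its passing peaks 74.1%. A background over 5 reads was seen at 10 of those 45 peaks and at 2 of the 9 others.

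Within the 3 kb that the choice of members allows, fewer member centres than coding promoter centres lay close to a TSS. Since distance to the TSS chose the members, the values are a description with no test. The centre was within 500 bp of a lncRNA TSS for 180 of 334 members in OCI-Ly1 (53.9%, 48.5 to 59.2), where 2735 of 3272 coding promoter peaks (83.6%, 82.3 to 84.8) were within 500 bp of a coding TSS. In VAL the shares were 199 of 387 (51.4%, 46.5 to 56.4) and 2976 of 3687 (80.7%, 79.4 to 82.0). The difference was 29.7 percentage points in OCI-Ly1 and 29.3 in VAL, counted as fewer members near the TSS. The median distance was 407 bp and 473 bp for members against 101 bp and 124 bp for coding promoter peaks. Listed peaks below the threshold in the same windows had 21.2% and 21.7% of their centres within 500 bp of a lncRNA TSS. Annotated start sites are denser for coding genes, with 146295 distinct coding TSSs against 35183 lncRNA TSSs more than 3 kb from a coding one, so the distances of the 2 sets are not like for like.

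**Figure D2:**
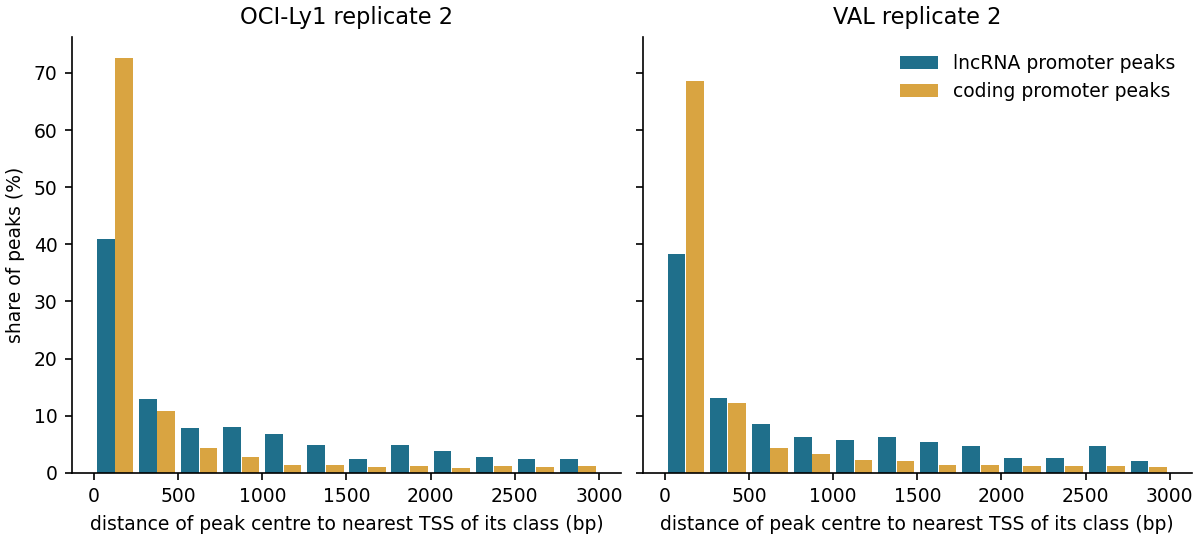
Bars give the share of peaks (y axis, percent) in 250 bp steps of distance from the peak centre to the nearest TSS of its class (x axis, bp), for members in blue and coding promoter peaks in yellow, with OCI-Ly1 replicate 2 on the left and VAL replicate 2 on the right. The first step holds 41.0% and 38.2% of the members and 72.7% and 68.5% of the coding promoter peaks, and the members' share is the larger in each step from 250 bp on.

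Summits fell on both sides of the TSS, with 178 of 334 members upstream in OCI-Ly1 (53.3%, 47.9 to 58.6) and 197 of 387 in VAL (50.9%, 45.9 to 55.9). The nearest coding TSS was a median of 27840 bp away in OCI-Ly1 and 27940 bp in VAL, and over 50 kb away for 103 and 119 members. Some members lay inside a protein-coding gene far from its start, 40 in OCI-Ly1 (11.98%) and 71 in VAL (18.4%), and 7 and 9 of these were in an exon of a coding gene. Genes tagged by GENCODE as overlapping a pseudogene were nearest to 58 members (17.4%) and 45 members (11.6%). Reads from near-identical copies of such genes may be lost or shared between copies. The paper's methods removed reads that map to several places, but whether this holds for these lists is not known.

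The FLI1 sequence was present at a share of the summits and nearly absent beside them. CCGGAAA or CCGGAAG, on either strand, lay within 50 bp of the summit of 103 of 334 members in OCI-Ly1 (30.8%, 26.1 to 36.0), against 10 windows of the same length 250 bp away (2.99%), with an adjusted p of 8.95e-24 by the exact McNemar test. In VAL it was 90 of 387 (23.3%, 19.3 to 27.7) against 5 (1.29%), with an adjusted p of 6.19e-21. Over all passing peaks the share was 35.1% in OCI-Ly1 and 28.4% in VAL. Windows of the same length at every lncRNA TSS more than 3 kb from a coding TSS held it in 3.16%, and at coding TSSs in 6.74%. The summit window of 1 VAL member held undetermined bases of the genome and counts as without the sequence.

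Members had the sequence less often than coding promoter peaks. In OCI-Ly1 the share was 30.8% of members against 48.6% of coding promoter peaks (46.9 to 50.3), with an adjusted p of 5.26e-10 by the two-sided Fisher exact test. In VAL it was 23.3% against 41.7% (40.2 to 43.3), with an adjusted p of 6.03e-13. The share rose with peak strength in both sets. In the 3 bands of −log10 q, from 3 to 5, 5 to 10 and 10 or more, it was 17.6%, 40.8% and 54.9% of members in OCI-Ly1 against 30.3%, 52.4% and 72.0% of coding promoter peaks. In VAL it was 12.3%, 34.2% and 40.3% of members against 25.5%, 47.6% and 66.7%. The difference passed the test within every band of both lists except the middle band of OCI-Ly1, with 31 of 76 members against 554 of 1058 and an adjusted p of 0.0764 by the Fisher exact test.

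**Figure D3:**
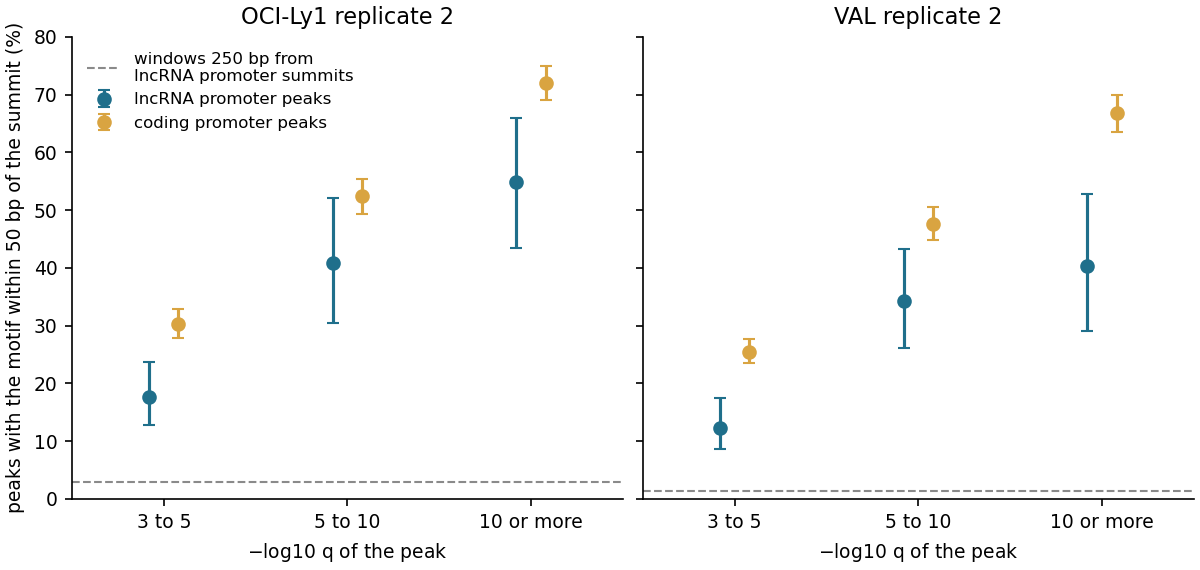
Points give the share of peaks with CCGGAAA or CCGGAAG within 50 bp of the summit (y axis, percent) by the −log10 q of the peak (x axis, 3 bands), for members in blue and coding promoter peaks in yellow, with Wilson 95% intervals and OCI-Ly1 replicate 2 on the left and VAL replicate 2 on the right. The dashed line is the share in windows 250 bp from member summits, 2.99% and 1.29%, and the members lie above it and below the coding promoter peaks in each band.

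Members at the TSS carried the sequence more often than those farther off. Within 500 bp of the lncRNA TSS it was at 81 of 180 summits in OCI-Ly1 (45.0%, 37.9 to 52.3) and at 77 of 199 in VAL (38.7%, 32.2 to 45.6). Beyond 500 bp it was at 22 of 154 (14.3%, 9.63 to 20.7) and 13 of 188 (6.91%, 4.08 to 11.5). Coding promoter peaks within 500 bp of their TSS had it at 53.7% and 47.9%. With both sets limited to 500 bp, the difference from coding promoter peaks had a Fisher exact p of 0.0253 in OCI-Ly1 and 0.0125 in VAL before adjustment. The adjusted p was 0.0505 and 0.0334 in the same order. That adjustment counted the 2 tests on TSS distance, whose outcome the limit of 500 bp fixes, so these adjusted values are larger than without them. Shared loci had the sequence at 68 of 134 (50.7%, 42.4 to 59.1), those of OCI-Ly1 alone at 39 of 195 (20.0%, 15.0 to 26.2) and those of VAL alone at 29 of 251 (11.6%, 8.17 to 16.1). A locus counts when any of its summits has the sequence, so shared loci were searched at more summits. Counted by member, it was at 64 of 140 (45.7%) in OCI-Ly1 and 61 of 138 (44.2%) in VAL where the other line passed. Where it did not, the numbers were 39 of 194 (20.1%) and 29 of 249 (11.65%).

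Other sequences were counted at the same summits as a description. The longer CCGGAAGT was within 50 bp of 10.5% of member summits in OCI-Ly1 and 7.24% in VAL, against 19.4% and 16.7% in coding promoter peaks and 13.4% and 10.7% in all passing peaks. GGAA alone, part of each longer sequence, was near 79.0% and 76.2% of member summits, against 88.6% and 86.3% in coding promoter peaks. It was near 79.3% and 76.8% of all passing summits, and 69.0% of windows at stand-alone lncRNA TSSs also held it. GGAA repeated 3 times in tandem was near none of the 334 and 387 summits. Taken as 3 divided by the number of summits, and not as a Wilson limit, the highest share this allows was 0.898% and 0.775%. TGTGGT, the core that RUNX factors bind, was near 8.38% and 6.46% of member summits against 3.58% and 3.88% of coding promoter peaks and 5.12% and 5.45% of all passing peaks, and 6.32% of windows at stand-alone lncRNA TSSs held it. GGGCGG, a GC box, was near 27.5% and 25.6% of member summits, 37.8% and 35.3% of coding ones and 29.1% and 27.1% of all passing ones. The ratio of observed to expected CpG within 250 bp of the summit had a median of 0.651 in OCI-Ly1 members and 0.532 in VAL members, against 0.817 and 0.806 in coding promoter peaks and 0.736 and 0.661 in all passing peaks, and it was above 0.6 at 54.8% and 44.4% of members.

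Of 31 snoRNA and other small RNA hosts in a list drawn up for this work, 5 had a member, 3 in OCI-Ly1, 4 in VAL and 2 in both, and 6 more had a passing peak that lay within 3 kb of a coding TSS. Of all 13856 eligible lncRNA genes, 4.42% had a member in either list, and the counts of this and the next lists stand beside that share. SNHG27, described above, is not in the list. Where a listed gene had no member in a library, the value given is the highest listed within 3 kb of any of its TSSs. SNHG11, which hosts snoRNAs on chromosome 20, had −log10 q of 39.4 in OCI-Ly1, 29.4 in VAL and 16.9 in VAL replicate 1, at folds of 21.2, 17.7 and 9.73. Its neighbour SNHG17 had 18.1 and 13.9 in OCI-Ly1 and VAL, and 2.33 in VAL replicate 1. SNHG6 was a member in VAL alone, at 17.2, with 2.41 listed in OCI-Ly1 and 2.61 in VAL replicate 1. SNHG7 was one in VAL alone, at 4.43 with 7 reads at the summit, and SNHG8 in OCI-Ly1 alone, at 3.59 with 6 reads. None of these summits had CCGGAAA or CCGGAAG within 50 bp. The hosts with a passing peak near a coding TSS were SNHG3, SNHG5, SNHG9, SNHG19, SNHG20 and GAS5.

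Among 23 microRNA hosts, 7 had a member, all in VAL and 3 of them also in OCI-Ly1. MIR142HG, the host of miR-142, which is made in blood cells, passed in all 3 libraries, at 6.56 in OCI-Ly1, 8.41 in VAL and 9.82 in VAL replicate 1. Its summits had CCGGAAG or CCGGAAA within 50 bp in each of them. MIR3142HG, the host of miR-146a, a brake on NF-κB signaling, was a member in VAL alone. It was listed at 1.37 in OCI-Ly1 and passed in both VAL libraries, at 14.7 in replicate 2 and 11.9 in replicate 1. MIR762HG had 22.4 in OCI-Ly1 and 19.6 in VAL. VAL replicate 1 listed no peak at that locus, and its highest value within 3 kb of a TSS of the gene was 0.764. DLEU2, which hosts miR-15a and is lost by deletion in chronic lymphocytic leukaemia, had member peaks at up to 4.69 in OCI-Ly1, 9.74 in VAL and 3.03 in VAL replicate 1. PVT1, next to MYC, reached 3.79 in VAL, MIR29B2CHG 3.56 and MIR210HG 3.27, and each was below 3 in OCI-Ly1 and in VAL replicate 1. MIR155HG, MIR17HG and MIR223HG had no passing peak in either list, with the highest values in OCI-Ly1 at 0.344, 2.89 and 0.873.

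Of 20 nuclear and chromatin lncRNAs, 19 were annotated as lncRNA and 5 had a member, 4 in each line and 3 in both. NORAD, a cytoplasmic and nuclear RNA that binds PUMILIO proteins, was the strongest, at 15.7 in OCI-Ly1, 21.9 in VAL and 10.7 in VAL replicate 1. MALAT1, an abundant RNA of nuclear speckles, had 6.62, 4.63 and 1.72 in the same order, so it did not pass in VAL replicate 1. JPX, an activator of XIST, had 3.82, 4.43 and 1.01. NEAT1, the scaffold of paraspeckles, passed in VAL alone, at 3.27 with 7 reads at the summit. LINC-PINT, a lncRNA induced by p53, had a member in OCI-Ly1 alone, at 3.38 with 8 reads. No passing peak was within 3 kb of a TSS of MEG3, HOTAIR, KCNQ1OT1, H19 or FIRRE, among others, in either list.

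In the list of 28 lymphoid and immune lncRNAs, of which 26 were found and 4 also stood in the microRNA list as hosts with a member, 8 had a member, 4 in OCI-Ly1, 7 in VAL and 3 in both. LINC01215 was the strongest that was no microRNA host, at 23.4 in VAL, 7.84 in VAL replicate 1 and 3.39 in OCI-Ly1. CYTOR, a cytoskeleton regulator RNA, and PCED1B-AS1 had members in VAL alone, at 3.74 and 3.89. LINC00299 had one in OCI-Ly1 alone, at 5.10. VAL listed no peak at that locus, and its highest value within 3 kb of a TSS of the gene was 1.18. In all, 21 different genes of the 4 lists had a member, and the lists were drawn up with earlier results of these data known, so their counts are a description. Where the strongest member of a listed gene in OCI-Ly1 or VAL was below a −log10 q of 5, it rested on 6 to 8 reads at the summit.

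**Figure D4:**
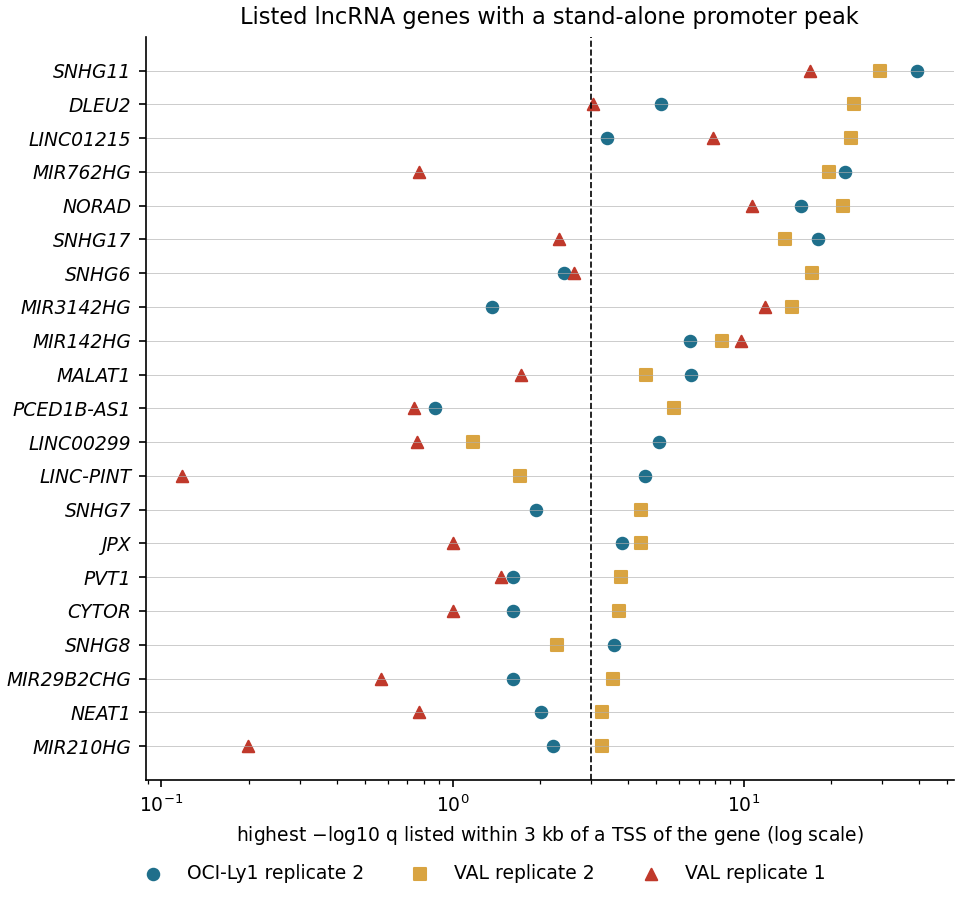
Each row is 1 of the 21 listed lncRNA genes with a member, and points give the highest −log10 q listed within 3 kb of any of its TSSs (x axis, log scale) in OCI-Ly1 replicate 2 (circles), VAL replicate 2 (squares) and VAL replicate 1 (triangles, absent where nothing is listed), with a dashed line at the threshold of 3. SNHG11, NORAD, MIR142HG, LINC01215 and DLEU2 lie above the line in all 3 libraries, and the plotted value of DLEU2 and PCED1B-AS1 in VAL replicate 2, and of LINC-PINT and DLEU2 in OCI-Ly1 replicate 2, belongs to a peak within 3 kb of a coding TSS that is no member.

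At the threshold the values just inside and just outside were close together. In OCI-Ly1 the weakest members were at ENSG00000273308 and POLR2J4, both at 3.03, and ENSG00000250519, at 3.06, while ENSG00000260473, ENSG00000227484 and GTF2IP1 were left out at 2.99. In VAL ENSG00000285970, ENSG00000275494 and ENSG00000251148 were inside at 3.003 with 6 reads each, and ENSG00000264015 at 2.98, FAM230D at 2.97 and AGAP2-AS1 at 2.94 were outside with 6, 7 and 6 reads. Members with a −log10 q under 4 numbered 139 of 334 and 165 of 387.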

How the data were processed

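FLI1 ChIP-Seq peak lists of 3 of the 4 libraries were analysed, OCI-Ly1 replicate 1 being left out for its long intervals, and the 4 input samples were not analysed here. Per the paper's methods the authors mapped reads to GRCh37 with bowtie2, kept reads of 1 position with SAMtools and removed duplicates. The submitters' processing notes name hg19, CASAVA 1.4 and BWA, and the methods name HOMER for the peaks, while the deposited lists have the form of MACS2 output, 1 list per library. The caller's settings and control for these lists are not given in the sources used here. The deposited fold is a linear ratio of the summit pileup to the local background, the −log10 p and −log10 q were given per summit by the authors' caller, and the deposited score, a rescaled −log10 p without decimals, was not used. The number of reads at a summit and its background were inferred from the fold and p with MACS2's formula, since read totals are not in the lists, and depth is known only through them.

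Distances were taken from the peak centre to every transcript start of GENCODE release 44 on GRCh37, and sequences from GRCh37, with pysam 0.24.0. The letters CCGGAAA or CCGGAAG were searched on both strands within 50 bp of the summit, with a control window 250 bp away on a random side (seed 1). Loci are members of both lists that overlap by at least 1 bp. Shares were compared with exact McNemar and two-sided Fisher exact tests (scipy 1.17.1), adjusted by Benjamini-Hochberg over 8 tests, and shares have Wilson 95% intervals for counting error alone. The scripts were tested on simulated data. Named genes are the nearest lncRNA of the 10 strongest members per list, the 10 strongest of them in VAL replicate 1, listed genes with a member and the 3 peaks on each side of the threshold. Genes outside this rule (SNHG27, ROCK1P1, FAM230E, PMS2P3, DDX11L genes, and listed genes without a member) were named after their values were seen. Distance to the TSS was part of the choice of members, so its 2 tests count in the adjustment but are not reported. The members and gene lists were chosen with earlier results of these data known.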

Additional observations from a re-analysis of the deposited data

How the results depend on the processing

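The share of CCGGAAA or CCGGAAG at summits kept its direction and its call against control windows under every alternative run in both lists, and the share against coding promoter peaks did so in VAL, with adjusted p up to 0.0334. In OCI-Ly1 the difference of the sequence share from coding promoter peaks had an adjusted p above 0.05 at a −log10 q from 5 to 10 (−11.6 points) and for centres within 500 bp of a TSS (−8.71 points, against −17.7 for all members), and kept its direction. For the limit of 500 bp the adjustment counted the 2 distance tests, whose outcome that limit fixes, and the unadjusted p was 0.0253 (Fisher exact test). In VAL the limit of 500 bp took it from −18.5 to −9.26 points. The number of loci, 580, was 247 at a −log10 q of at least 5, 380 with windows of 1 kb, and 349 with VAL replicate 1 in place of VAL replicate 2, and leaving out a library gave 334 to 387. It rose to 676 with 1 TSS per gene, to 641 with peaks joined by 50% of both, and to 615 with peaks joined by summits within 100 bp. Recovery in VAL replicate 1, members minus coding promoter peaks, was past the threshold without members that have a TSS of another gene type within 3 kb (−4.61 points in OCI-Ly1, −4.62 in VAL), with an overlap of 50% of both peaks (−2.99 in OCI-Ly1), with a fold of at least 4 (−3.68 in VAL) and with 1 TSS per gene (−4.02 in VAL). It turned to a higher share in members, short of the threshold, at a −log10 q of at least 5 (1.24 and 1.85), with 1 kb windows (1.29 in OCI-Ly1), at a −log10 q from 3 to 5 (1.68 in OCI-Ly1) and of 10 or more (2.98 and 5.09), and within 500 bp of a TSS (0.00203 in OCI-Ly1). The cause was not tested. The difference in centres within 500 bp of a TSS shrank to −14.8 points in OCI-Ly1 and −13.6 in VAL with 1 kb windows, which leave out the farther peaks by construction. With GGAA alone the summits exceeded the control windows by 15.3 and 12.7 points, and with CCGGAAGT by 10.2 and 6.98. The bands of −log10 q, the limit of 500 bp on both sets and the limit on background were chosen after seeing the data. No paired analysis was possible because no test compares groups of replicates, and OCI-Ly1 replicate 1 holds no list of sites. A peak passed with 6 reads, so weaker binding was not detectable at this depth.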

Other observations

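Members lay near chromosome ends more often than other peaks did, as a count with no test. The share of stand-alone lncRNA TSSs near an end was not counted, so these counts cannot tell binding apart from the position of the annotated genes. Within 100 kb of an end were 9 of the 334 OCI-Ly1 members (2.69%) and 5 of the 387 VAL members (1.29%), against 0.747% and 0.448% of all passing peaks and 0.397% and 0.271% of coding promoter peaks. They include the strongest member, ENSG00000290823, and DDX11L genes, copies of a subtelomeric family, which took 4 members in OCI-Ly1 and 2 in VAL with none in VAL replicate 1 and none with CCGGAAA or CCGGAAG at the summit. These features were chosen after their values were seen. Reads of such copies may be shared between chromosome ends, and the mapping of single reads cannot be seen in the lists.

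The loci were spread over the chromosomes, with 65 on chromosome 1, 45 on chromosome 17 and 43 on each of chromosomes 16 and 7. On chromosome 7, 23 loci had a member in OCI-Ly1 alone and 7 in VAL alone, and on chromosome 17 the numbers were 13 and 26. Over all 580 loci they were 195 and 251. These chromosomes were picked after the values were seen. The same split was not counted by chromosome over all passing peaks, so it cannot be called particular to the members. Copy number of the lines was not examined.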
